A study of Homo sapiens with 3 samples.

Results

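The difference between YB5 cells given both drugs and YB5 cells on the array labelled carboplatin was measured for every gene, as the log2 change with both drugs minus the log2 change on the array labelled carboplatin. A gene entered when its treated signal was well above background on at least 1 of the 2 arrays, which held for 14061 of the 18613 genes on the array. On 13456 of these the treated signal was well above background on both arrays. YB5 was cloned from SW48, a line of colon adenocarcinoma cells, so all values describe 1 clone, and it carries a GFP gene behind a methylated cytomegalovirus promoter that was not measured here. By the labels, the cells on 1 array received carboplatin at 20 μM, those on the other carboplatin at 20 μM with decitabine at 25 nM, and the control cells DMSO, with 4 doses on days 1 to 4 and harvest on day 6. A further array is labelled decitabine at 25 nM, and its values are given beside the others only for reference. Each treatment was hybridised once, against DMSO control RNA in the Cy5 channel, with the treated RNA in the Cy3 channel on every array.

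Decitabine depletes the DNA methyltransferases of dividing cells, and genes held silent by promoter methylation can then be transcribed. Carboplatin forms platinum adducts and crosslinks on DNA. Both drugs can activate p53, which induces the CDK inhibitor p21, its own inhibitor MDM2 and genes of repair and apoptosis. When p21 holds the cell cycle, the DREAM complex and RB keep genes of replication and mitosis off, and these act through the E2F site and the cell cycle homology region (CHR) of promoters.

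By the labels, the second drug is decitabine, and 2 sets of values go against that reading. Cancer-testis antigens, germline genes that promoter methylation keeps silent in somatic cells and that decitabine is known to induce, were counted with the treated channel above background on any of the 3 arrays. Of 25 such members 9 were at least 1.5-fold above control on the array labelled carboplatin (36 %), 10 with both drugs (40 %) and 0 on the array labelled decitabine. Over all 14209 genes taken in the same way these shares were 3.62 %, 9.79 % and 13.9 %, the last of them 6.42 % without the first 9 columns of the arrays, where an artefact raised the ratios of the array labelled decitabine. PRAME, an antigen expressed in testis and in tumours, had a log2 change of 3.09 on the array labelled carboplatin, 2.95 with both drugs and -0.06 on the array labelled decitabine. GAGE12F, which stands for a family of near-identical copies, had 6.14, 5.68 and 0.11. A member dim in control cells could enter the 25 only through a treated signal above background. The filter therefore partly fixes high shares on the arrays that let members in. The share over all 14209 genes is not a like background, since it includes genes expressed in control cells. Genes that the study named as raised by carboplatin, chosen on these same samples, were at least 1.5-fold up for 19 of 145 measured on the array labelled carboplatin and for 124 on the array labelled decitabine. Away from the artefact columns these counts were 14 and 50 of 69. Of the 53 genes named as lowered by carboplatin, the array labelled carboplatin had 4 that were at least 1.5-fold down, the array labelled decitabine 40. Over all 14209 genes the shares that far down were 1.95 % and 6.12 %, in the same order. Of 13 genes named as raised by the combination, 12 were at least 1.5-fold up with both drugs. Under the carboplatin label 5 of these 13 were that far up, and under the decitabine label 2. CBX5, which encodes HP1 alpha and which the study followed as lowered by carboplatin, gave mixed values. Its brightest probe, in the artefact columns, had -0.67 on the array labelled carboplatin, against 0.18 on the array labelled decitabine. Its other 2 probes had 0.14 and 0.30 on the array labelled carboplatin, against -0.35 and -0.44 on the array labelled decitabine. No array was reassigned. Every value below is the array of both drugs minus the array labelled carboplatin, and which drug that difference adds rests on the labels.

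Across all genes the difference was centred near 0, with a median of 0.01 and 5th and 95th percentiles of -0.56 and 0.62 on the log2 scale. With both drugs, 786 genes were at least 1.5-fold higher (5.59 % of those measured) and 634 at least 1.5-fold lower (4.51 %). At 2-fold these counts were 245 and 132, and at 4-fold 29 and 4. Of the 786 genes that were higher, 529 were within 1.5-fold of control on the array labelled carboplatin and above it with both drugs, 93 were above control on both arrays and 4 passed from below control to above it. Of the 634 that were lower, 399 were within 1.5-fold of control on the array labelled carboplatin and below it with both drugs. A further 41 were above control on the array labelled carboplatin and within 1.5-fold of it with both drugs, and 5 passed from above control to below it. The list counts below are to be read beside the shares of 5.59 % higher and 4.51 % lower over all genes. Several lists lie near them.

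**Figure D1:**
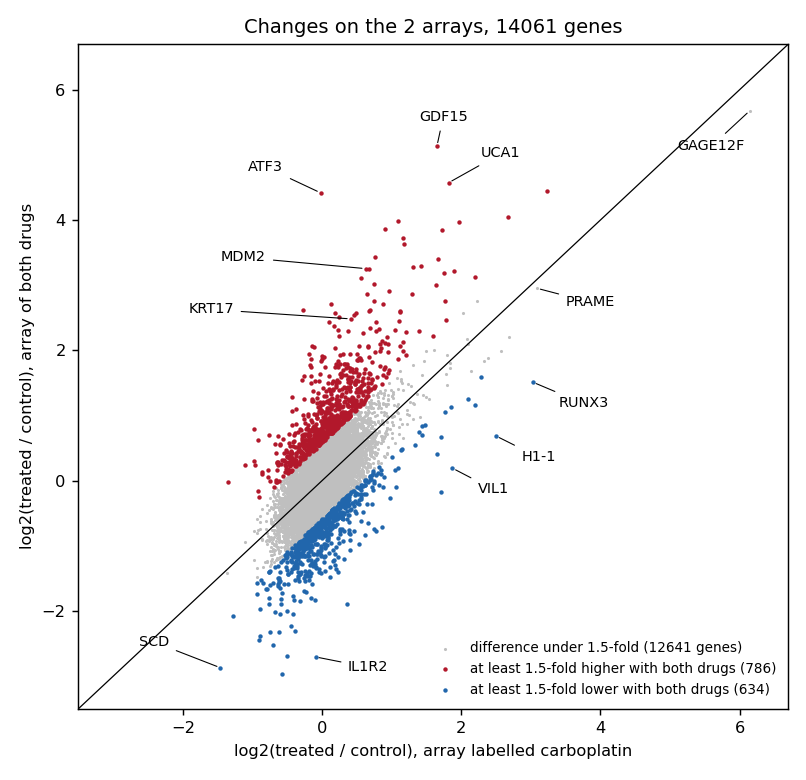
Log2(treated/control) of 14061 genes on the array labelled carboplatin (x axis) and on the array of both drugs (y axis), 1 point per gene and 1 array per treatment; red and blue points are genes at least 1.5-fold higher (786) or lower (634) with both drugs, and the line marks equal change. ATF3 and GDF15 lie farthest above the line, while GAGE12F and PRAME lie near it at large changes on both arrays.

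Each treatment had a single array, so the spread between cultures was not measured and no difference was tested. The only error at hand is that of repeated spots. Treated signals were well above background for 68.4 % of probes on the array labelled carboplatin, against 68.5 % for both drugs, and the 264 probes spotted 10 times on each array gave a pooled SD of the log2 change of 0.0775 with both drugs, 0.0762 on the array labelled carboplatin, or 0.109 for a difference of 2 single spots. That value holds no variation between cultures, labellings or arrays. The channels were also compared apart. The SD of the difference between arrays over all genes was 0.153 in the control channel and 0.413 in the treated channel. Control signals were at least 1.5-fold apart for 115 of 14061 genes, and 15 of these were among the 1420 genes called higher or lower. For 1202 of the 1420 the treated channel alone was past 1.5-fold in the same direction.

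**Figure D2:**
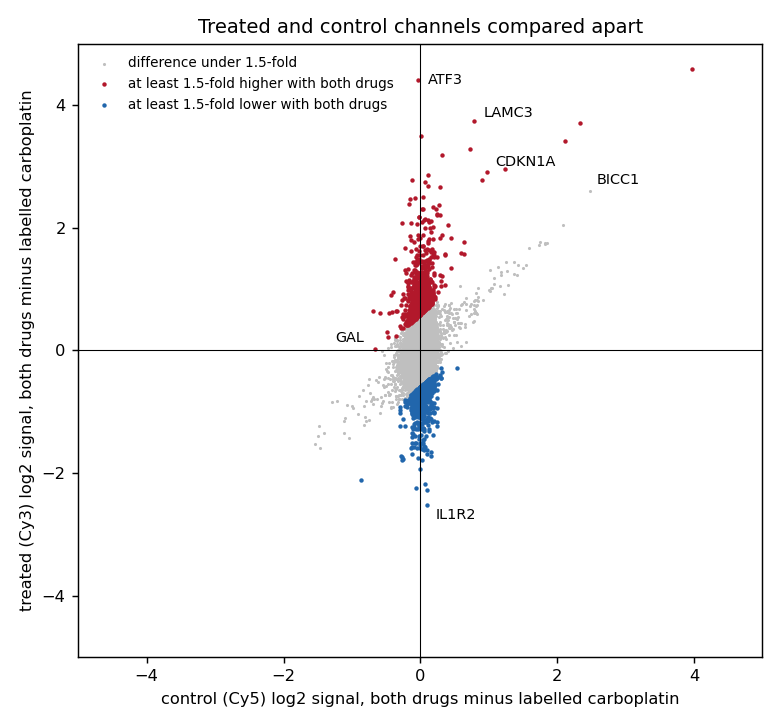
Difference between the array of both drugs and the array labelled carboplatin in log2 signal, for the control Cy5 channel (x axis) and the treated Cy3 channel (y axis), 1 point per gene, coloured by the call on the ratio. The called genes spread along the treated axis, with an SD of 0.413 against 0.153 over all genes in the control channel, and genes on the diagonal, such as BICC1, moved in both channels alike.

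p53 targets of arrest, repair and feedback were higher with both drugs nearly throughout. Of 27 measured, 24 were at least 1.5-fold higher and 0 lower, the median difference was 1.33, and all 27 differences were above 0. TRIM22, among the 24, was above background with both drugs alone, so its value is a bound. The median log2 change of the list was 0.50 on the array labelled carboplatin, 1.77 with both drugs and 1.94 on the array labelled decitabine, where 6 of the 27 probes lie in the artefact columns. MDM2, the ubiquitin ligase that degrades p53, had a log2 change of 0.63 on the array labelled carboplatin, 3.25 with both drugs and 3.34 on the array labelled decitabine, a difference of 2.63 over probes that all moved the same way. CDKN1A, which encodes p21, had 0.96 and 2.91, a difference of 1.95. Its control signals differed by 0.97 between the arrays and its treated signals by 2.92, so the ratio took up part of a difference present in both channels.

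GADD45A, a sensor of DNA damage, went from 0.23 to 1.83, and TP53I3, an oxidoreductase induced by p53, from -0.10 to 1.53. BTG2, an antiproliferative factor, went from 0.33 to 1.78, and PLK3, a stress-responsive polo-like kinase, from 1.12 to 2.60. SESN1, an inhibitor of mTORC1 signalling, went from 0.40 to 1.73. MDM4, a second inhibitor of p53, and PPM1D, the phosphatase that ends the p53 response, had differences of 1.01 and 0.84, which fell short of 1.5-fold without the first 9 columns (MDM4, 0.37) or with the values of the authors' table (PPM1D, 0.55). The 3 members short of 1.5-fold were SFN, the 14-3-3 sigma protein that holds cells in G2, at 0.08, CCNG1, cyclin G1, at 0.50, and POLH, the polymerase that bypasses lesions, at 0.52. SFN had similar log2 changes on each array, 1.07, 1.15 and 1.28 on the arrays labelled carboplatin, both drugs and labelled decitabine.

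By the array design, in GRCh37 coordinates, the MDM2 probe lies at chr12:69236129-69236188, the CDKN1A probe at chr6:36654706-36654765, the ATF3 probe at chr1:212793856-212793915 and the GDF15 probe at chr19:18499890-18499949.

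The list of p53 targets and receptors of apoptosis divided, and not all of its members are p53 targets. Of 20 measured, 9 were at least 1.5-fold higher, 0 lower, and the median difference was 0.53. FAS, the death receptor, had the largest difference, 2.21, with a log2 change of 2.06 with both drugs against -0.14 on the array labelled carboplatin. The TRAIL receptors TNFRSF10B and TNFRSF10A had differences of 0.99 and 0.97, and the decoy receptors TNFRSF10D and TNFRSF10C 0.59 and 0.55. PMAIP1, the BH3-only protein NOXA, went from 0.61 to 1.71, and BAX, the pore-forming effector, from 0.71 to 1.82, though 1 of the 3 BAX probes moved the other way (-0.26). DRAM1, a lysosomal regulator of autophagy, had a difference of 1.17. BBC3, which encodes PUMA, had a difference of -0.25, BCL2L11, which encodes BIM, -0.05, and APAF1, the scaffold of the apoptosome, 0.07.

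The promoter windows of the p53 targets are shown where they held an element. The p53 response element was searched by name, after the values were known, as paired half-sites of 10 bases at most 13 bases apart with at most 2 mismatches in all, in the RefSeq window from 250 bases before to 50 after each gene's start (GRCh38.p14). It was found in 2 of 22 windows of the arrest and repair list (9.09 %), 1 of 15 of the apoptosis list (6.67 %) and 2.41 % of the windows of all genes measured. Many p53 elements lie outside such windows, in distal sites or introns. The capitals mark the paired half-sites, and the differences of FDXR, AEN and BAK1 were 1.35, 0.93 and 0.43.
FDXR, chr17:74872995-74873045, minus strand: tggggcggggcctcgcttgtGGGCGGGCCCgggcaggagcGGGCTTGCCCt
AEN, chr15:88621286-88621339, plus strand: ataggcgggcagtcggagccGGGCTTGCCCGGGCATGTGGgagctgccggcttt
BAK1, chr6:33580308-33580369, minus strand: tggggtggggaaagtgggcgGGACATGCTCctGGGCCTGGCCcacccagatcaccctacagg

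The largest rises of all were in ATF3 and GDF15, both induced by stress and by p53. ATF3, a bZIP transcription factor, had a log2 change of -0.02 on the array labelled carboplatin, 4.42 with both drugs and 5.13 on the array labelled decitabine, a difference of 4.44. GDF15, a secreted stress cytokine of the TGF-beta superfamily, had 1.65, 5.13 and 4.96, a difference of 3.48. Both were listed with the integrated stress response, the program that ATF4 drives when translation is inhibited, and the rest of that list did not follow them. Of 19 measured, 3 were at least 1.5-fold higher and 2 lower, with a median of 0.23. DDIT4, an inhibitor of mTORC1, was the third at 0.63. ATF4 itself had a difference of 0.13, DDIT3, which encodes CHOP, 0.45, and TRIB3, a target of CHOP, -0.04. The amino acid genes ASNS and PHGDH were lower, by -0.89 and -1.0. The list was made of genes of this program, so a motif share in it is no evidence on the difference between the arrays. Matches to the amino acid response element TGATGCAAT, TGATGAAAC, TGATGCAAC or TGATGCAAA on either strand were found in 2 of 15 promoter windows of this list (13.3 %) and 0.558 % of all measured.

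Genes of mitosis and the spindle were lower with both drugs as a block. Of 46 measured, 40 were at least 1.5-fold lower and 0 higher, with a median difference of -0.90 and all 46 below 0. The median log2 change was -0.14 on the array labelled carboplatin, -1.0 with both drugs and -0.99 on the array labelled decitabine (10 members in its artefact columns), and 1 member was at least 1.5-fold below control on the array labelled carboplatin against 41 with both drugs. CENPA, the histone H3 variant of centromeres, had the lowest difference, -1.55, from 0.19 to -1.36. BUB1, a kinase of the spindle checkpoint, went from -0.18 to -1.53, and NDC80, which links the kinetochore to microtubules, from -0.21 to -1.47. CCNB2, a mitotic cyclin, had a difference of -1.30 with 2 probes that disagreed in direction, and its partner CCNB1 had -1.13. PLK1 and AURKA, kinases that drive entry into mitosis, had -1.21 and -0.98. BUB3, ANLN, CKS1B, INCENP, KIF23 and MAD2L1 were the 6 members short of 1.5-fold, from -0.17 (BUB3) to -0.56 (KIF23).

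**Figure D3:**
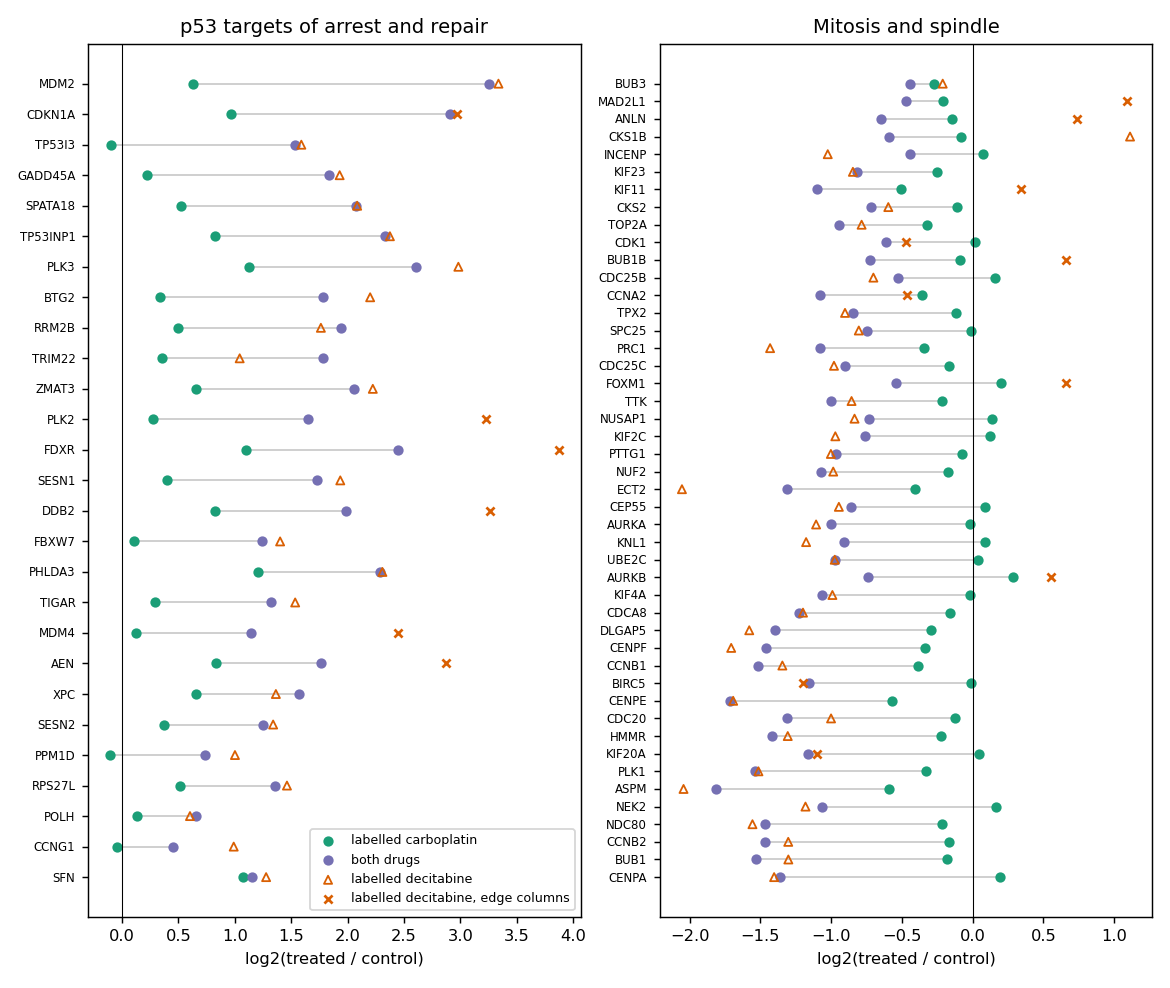
Log2(treated/control) of 27 p53 targets (left) and 46 mitotic genes (right) on the array labelled carboplatin (green), the array of both drugs (purple) and, for reference, the array labelled decitabine (orange triangles, or crosses where the probe lies in that array's artefact columns), ordered by the difference. All p53 targets lie to the right and all mitotic genes to the left with both drugs, by a median of 1.33 and -0.90.

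Promoter motifs of the mitotic genes are described because the members of the list moved together. The CHR is a motif of mitotic genes in general, so its share is no evidence on the difference between the arrays. The CHR was searched as TTTGAA or TTTAAA and the CCAAT box as CCAAT, on both strands, and matches of both kinds can share no more than an end base. The CHR was found in 32 of 38 windows of the list (84.2 %), against 16.2 % of the 11116 windows of measured genes and 24.3 % of all 27305 windows. The CCAAT box was found in 30 of 38 (78.9 %), against 36.8 % and 35.7 %. The 130 bases before the start are given for the 6 mitotic genes with the largest falls, in GRCh38.p14 from RefSeq, 5′ to 3′ along the gene, with the CHR and CCAAT letters of either strand in capitals.
CENPA, chr2:26785926-26786055, plus strand: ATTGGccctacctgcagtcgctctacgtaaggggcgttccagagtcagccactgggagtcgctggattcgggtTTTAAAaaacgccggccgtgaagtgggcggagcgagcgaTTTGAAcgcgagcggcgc
BUB1, chr2:110678064-110678193, minus strand: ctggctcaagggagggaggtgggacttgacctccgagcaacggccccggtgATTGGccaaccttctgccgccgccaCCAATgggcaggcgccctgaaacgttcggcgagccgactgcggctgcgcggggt
CCNB2, chr15:59105016-59105145, plus strand: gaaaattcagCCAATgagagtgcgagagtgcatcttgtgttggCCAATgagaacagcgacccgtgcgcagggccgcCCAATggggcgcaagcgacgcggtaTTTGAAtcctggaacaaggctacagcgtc
NDC80, chr18:2571427-2571556, plus strand: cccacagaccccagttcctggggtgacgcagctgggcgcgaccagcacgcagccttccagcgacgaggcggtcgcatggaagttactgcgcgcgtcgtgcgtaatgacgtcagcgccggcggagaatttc
NEK2, chr1:211675622-211675751, minus strand: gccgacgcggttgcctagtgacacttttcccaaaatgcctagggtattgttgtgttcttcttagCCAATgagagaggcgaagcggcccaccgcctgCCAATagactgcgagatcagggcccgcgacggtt
ASPM, chr1:197146670-197146799, minus strand: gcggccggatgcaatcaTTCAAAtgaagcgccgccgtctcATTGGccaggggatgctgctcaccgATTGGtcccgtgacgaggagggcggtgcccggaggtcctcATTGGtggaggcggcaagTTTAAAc

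Of these 6, CENPA and ASPM hold 2 CHR matches in the stretch shown, with CCAAT boxes upstream of the match nearest the start, and CCNB2 holds 1 with 3 CCAAT boxes. BUB1 and NEK2 hold 2 CCAAT boxes each and no CHR in their windows, and the match of NDC80 overlaps its start and is not shown. A match describes letters and shows no binding.

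Genes of DNA replication and nucleotide supply were lower to a smaller extent. Of 46 measured, 16 were at least 1.5-fold lower and 0 higher, with a median of -0.45. Their median log2 change was -0.30 with both drugs against 0.16 on the array labelled carboplatin, so the arrays lay on opposite sides of control. The lowest were MCM3, a subunit of the replicative helicase, at -0.86, TK1, thymidine kinase, at -0.85, GINS2, of the helicase's GINS complex, at -0.83, and MCM5 at -0.82. TK1 went from 0.40 to -0.45. FEN1, the flap endonuclease, went from 0.72 to -0.10. PCNA, the sliding clamp and also a p53 target, was the only member above 0, with a difference of 0.52. TYMS, thymidylate synthase, had -0.07, and CDC45, LIG1 and CDT1 lay between -0.13 and -0.03.

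The E2F site was searched as TTTCGCGC, TTTGGCGC or TTTCCCGC on both strands, with the same limit. It was found in 18 of 39 windows of the replication list (46.2 %), 3 of 38 of the mitosis list (7.89 %) and 4.47 % of measured genes, while the CHR was found in 3 of the 39 (7.69 %). The CCAAT box was found in 23 of the 39 (59.0 %), against the 36.8 % of measured genes. Replication-dependent histone genes, given below, divided less clearly. Of their 46 windows 22 held the CHR (47.8 %), 40 the CCAAT box (87.0 %) and 10 the E2F site (21.7 %). The upstream stretches of 4 of the genes with the largest falls are given beside those of the mitotic genes, with E2F, CCAAT and CHR letters in capitals. The 6 mitotic stretches hold 0 E2F matches.
MCM3, chr6:52284743-52284872, minus strand: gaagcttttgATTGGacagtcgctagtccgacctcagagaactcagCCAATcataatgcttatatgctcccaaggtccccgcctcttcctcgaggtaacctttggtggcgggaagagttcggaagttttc
TK1, chr17:78187205-78187334, minus strand: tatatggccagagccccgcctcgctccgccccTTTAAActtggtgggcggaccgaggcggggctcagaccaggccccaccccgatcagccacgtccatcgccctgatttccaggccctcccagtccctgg
GINS2, chr16:85688955-85689084, minus strand: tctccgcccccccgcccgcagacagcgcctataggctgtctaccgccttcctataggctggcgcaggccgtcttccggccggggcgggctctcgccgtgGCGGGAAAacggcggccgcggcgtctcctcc
FEN1, chr11:61792781-61792910, plus strand: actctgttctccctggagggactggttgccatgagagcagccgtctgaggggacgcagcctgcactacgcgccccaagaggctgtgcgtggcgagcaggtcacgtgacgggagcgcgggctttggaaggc

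MCM3 holds 2 CCAAT boxes in the stretch shown, and of its 2 E2F matches 1 lies farther upstream and 1 overlaps the start, GINS2 holds 1 E2F match, and TK1 and FEN1 hold neither E2F nor CCAAT matches in their windows. TK1 holds 1 CHR match.

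Replication-dependent histone genes, which supply new chromatin in S phase, were lower with both drugs by class. Of 51 measured, 25 were at least 1.5-fold lower and 0 higher, with a median of -0.54 and medians of 0.28 on the array labelled carboplatin, -0.20 with both drugs and -0.28 on the array labelled decitabine. Of the H4 genes, 10 of 11 were lower, with a median of -1.40, and of the H3 genes 8 of 11, with a median of -1.17. Of 10 H2A genes 5 were lower, with a median of -0.56, and of 15 H2B genes 0, with a range from -0.43 to -0.18. H4C3 went from -0.62 to -2.32 and H3C7 from 0.77 to -0.78, although the H3C7 difference was -0.43 by the median of its probes. Copies of a class are nearly identical, so a probe may read several of them and the genes are not independent. The mRNAs of these genes mostly lack a poly(A) tail, and the RNA was primed with a T16N2 primer, so the signals come from the part of the mRNA that such a primer copied. H1-1, a linker histone, was dim in control cells, with a log2 change of 2.50 on the array labelled carboplatin, 0.69 with both drugs and -0.20 on the array labelled decitabine.

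G1 regulators were lower in part. Of 27 measured, 8 were at least 1.5-fold lower and 0 higher, with a median of -0.13. These were inhibitors as well as drivers. The CDK inhibitors CDKN2C, CDKN1C, CDKN1B and CDKN2A had differences of -1.48, -0.87, -0.86 and -0.79. E2F8, E2F2, E2F1 and CDK2 had -0.82, -0.63, -0.61 and -0.60. CCND1, cyclin D1, had 0.28, with log2 changes of 0.65 and 0.93, and CCNE1, cyclin E1, had -0.14.

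**Figure D4:**
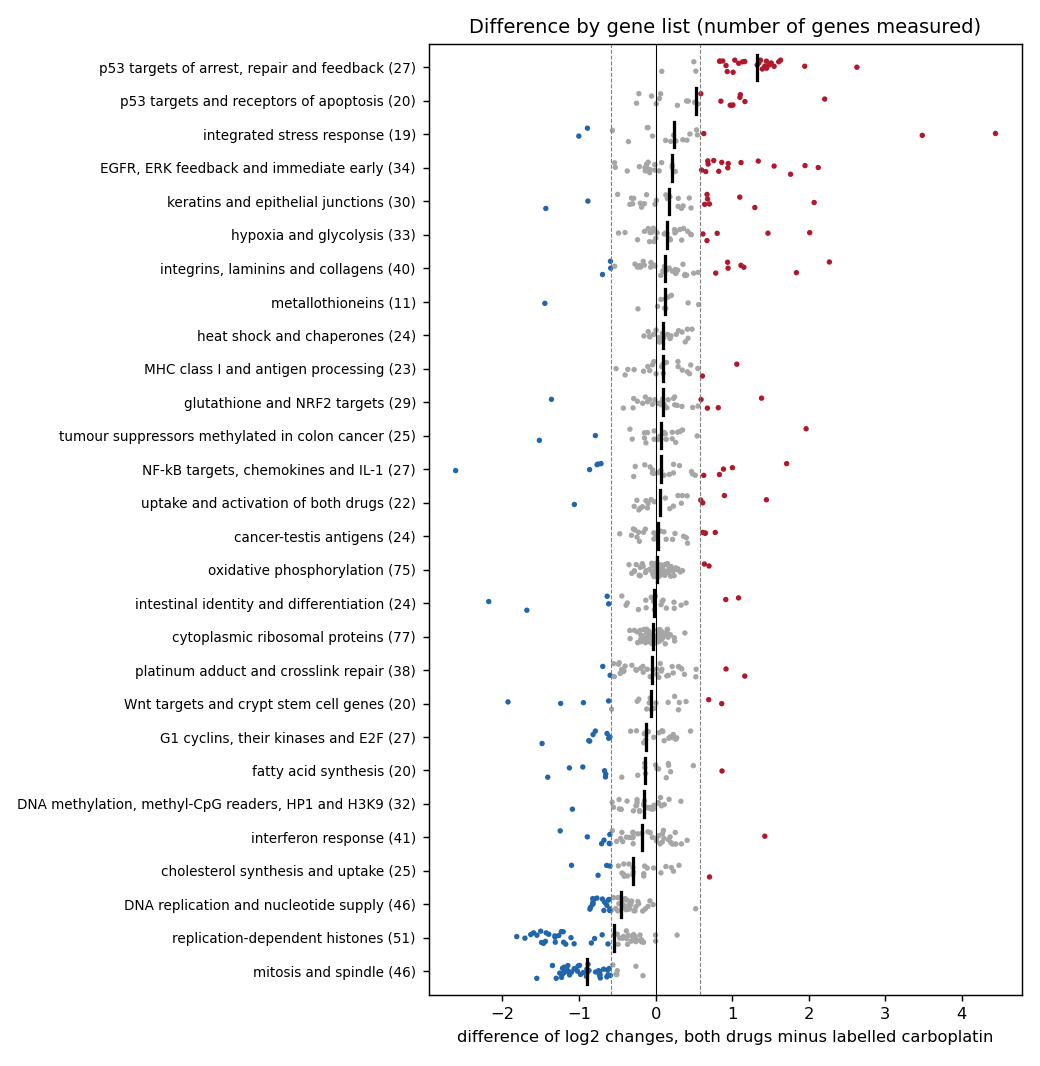
Difference of log2 changes, both drugs minus labelled carboplatin (x axis), for each gene of the 28 lists (rows, with the number of genes measured), 1 point per gene, the black bar at the list's median and dashed lines at 1.5-fold. The p53 arrest list (median 1.33) and the mitosis list (median -0.90) lie apart from the others, and the ribosomal protein list (median -0.03) stays between -0.34 and 0.38.

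Genes of EGFR and ERK signalling were higher in part and none of them lower. Of 34 measured, 15 were at least 1.5-fold higher and 0 lower, with a median of 0.22. The EGFR ligands AREG and EREG went from 1.5-fold or more below control, -0.97 and -0.92, to 0.79 and 0.63, and HBEGF from -0.18 to 0.76. The ERK phosphatases DUSP1, DUSP6, DUSP5 and DUSP4 had differences of 0.94, 0.76, 0.68 and 0.65. FOSL1, an AP-1 subunit, went from -0.17 to 1.78, and PHLDA1, a pleckstrin homology protein induced by ERK, from -0.19 to 1.94. The immediate early genes EGR1, JUN and FOS had differences of -0.12, -0.08 and 0.22, and the receptors EGFR, ERBB2 and ERBB3 -0.13, -0.54 and -0.53. MYC had 0.86 by its brightest probe, and 0.28 by the median of its 3 probes.

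Among keratins and junction genes 7 of 30 were at least 1.5-fold higher and 2 lower, with a median of 0.17. KRT17, a keratin of basal and stressed epithelia, had a log2 change of 0.41 on the array labelled carboplatin, 2.48 with both drugs and 0.44 on the array labelled decitabine. KRT81 had 0.51, 1.61 and 0.03, so that for both of these genes the array of both drugs lay above each array of a single label. The epithelial keratins KRT8 and KRT18 had differences of 0.67 and 0.64, which ended short of 1.5-fold without the first 9 columns (KRT8, 0.24) or by the median of the probes (KRT18, 0.52). KRT14 was lower by its brightest probe (-1.43), but its 2 probes disagreed and their median was -0.19. CDH1, E-cadherin, was lower, from 0.04 to -0.85.

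Matrix and adhesion genes gave 7 higher and 3 lower of 40, with a median of 0.13. COL5A1, among the 7, was above background with both drugs alone, so its value is a bound. LAMA3 and LAMB3, chains of the laminin that anchors epithelium to its basement membrane, had differences of 1.84 and 0.95. ITGA3, a receptor subunit for that laminin, had 1.11, and COL17A1, a collagen of hemidesmosomes, 0.78. LAMC3 was among the 12 largest rises at 2.95, although its control signals also differed, by 0.79. ITGA1, ITGB5 and COL1A1 were lower, by -0.69, -0.59 and -0.59.

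Other genes with the largest differences had no list in common. SULF2, a sulfatase of heparan sulfate, went from 1.08 to 3.99, WFDC2, a secreted protease inhibitor, from -0.27 to 2.62, and KCNN4, a calcium-activated potassium channel, from 1.17 to 3.73. UCA1, a long noncoding RNA of carcinomas, had a log2 change of 1.82 on the array labelled carboplatin, 4.57 with both drugs and 2.06 on the array labelled decitabine. FXYD3, a regulator of the sodium pump, had 0.56, 3.1 and 1.93. DQX1, ZNF473CR and LOC100289026 completed the 12 largest rises, with differences of 2.68, 2.58 and 2.46.

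The largest falls were IL1R2, the decoy receptor of IL-1, from -0.09 to -2.70, MACROD2, an ADP-ribose hydrolase, from -0.58 to -2.96, and CDH7, a cadherin, from 0.36 to -1.89. Over their probes the differences ran from -2.61 to -1.24 (IL1R2), from -2.38 to -0.33 (MACROD2) and from -2.25 to -0.62 (CDH7). CLRN3 and LGR6, the latter a receptor of R-spondins, followed at -2.18 and -1.93. PRR15L, MBOAT1 and GAS2L3 had -1.81, -1.78 and -1.73. In DPEP1, VIL1 and H1-1 a rise on the array labelled carboplatin was smaller or absent with both drugs. DPEP1, a dipeptidase, went from 1.71 to -0.17, and VIL1, the microvillus protein villin, from 1.87 to 0.19. On the array labelled decitabine DPEP1 and VIL1 had -0.37 and -0.88.

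Genes dim in the control cells were examined because the study asked which silenced genes the drugs reactivate. Dim genes were the 25 % with the lowest control signal, 4654 on the array, and 372 of them passed the rule. Of these 372, 42 were at least 1.5-fold higher with both drugs (11.3 %) and 13 lower. A dim gene passed only if some treated signal was above background, and 28 of the 42 passed through the array of both drugs alone, so this share is a description and not evidence of a rise. The control signal of 34 of the 42 was above background on neither array. INHBA, a subunit of activin, went from 0.37 to 2.30, and PTAFR, the receptor of platelet-activating factor, from 0.68 to 2.61. PRSS30P went from 0.78 to 2.30 and ICAM4, an adhesion molecule, from 0.49 to 1.72.

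For genes seen with both drugs alone only a bound can be given. The treated signal of ABCA12, a lipid transporter of the epidermis, exceeded that on the array labelled carboplatin at least 6.43-fold in the main processing. Its difference of log2 changes, 2.57, was 2.00 with median centring. The treated signal of COL5A1, a fibrillar collagen, was at least 4.97-fold higher by its brightest probe. The 2 COL5A1 probes had differences of 2.27 and 0.84. Of the 6 largest bounds, 3, in BICC1, PRG4 and ADGRF3, moved in both channels alike, and their ratios differed by 0.13, -0.10 and -0.01. All 6 of the largest bounds in the other direction (ZNF90, BDKRB1, KLRC4, WSCD2, MAGEB4 and SCN2B) did so too. GAL, galanin, passed 1.5-fold (0.69) through its control channel, since its treated signals differed by 0.02.

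The 13 dim genes that were lower with both drugs, SBSPON (0.38) excepted, were at least 1.5-fold above control on the array labelled carboplatin. RUNX3, a transcription factor often methylated in colon cancer (probe at chr1:25226333-25226392, GRCh37), had a log2 change of 3.03 on the array labelled carboplatin, 1.51 with both drugs and -0.38 on the array labelled decitabine. Its difference, -1.52, turned to 0.48 with the processed signals of the scanner software, the only change of sign among the 297 genes past 1.5-fold that were named or lie in a list. DDIT4L went from 2.19 to 1.16, PLPP7 from 2.09 to 1.26 (-0.29 in the treated channels alone), DNALI1 from 1.76 to 1.05 and EN1, a homeobox gene, from 1.43 to 0.71.

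**Figure D5:**
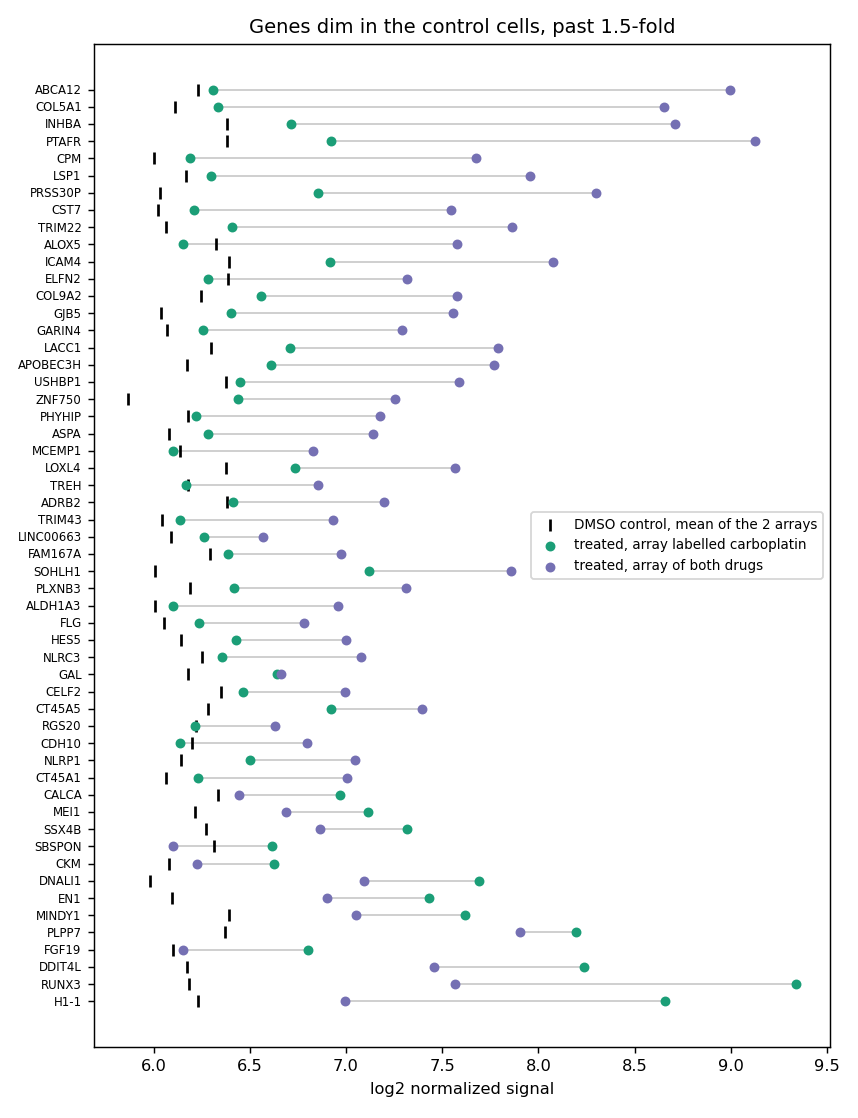
Log2 normalized signal (x axis) of genes dim in control cells and at least 1.5-fold apart, on the array labelled carboplatin (green), the array of both drugs (purple) and in the DMSO control (black ticks, mean of the 2 arrays), ordered by the difference. The genes from ABCA12 to CT45A1 lie higher with both drugs, with GAL nearly equal in treated signal, and the 13 from CALCA to H1-1 lie lower.

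Cancer-testis antigens as a list showed little difference. Of 24 measured among 68 listed, 4 were at least 1.5-fold higher and 0 lower, with a median of 0.03 and median changes of 0.41 with both drugs against 0.35 on the array labelled carboplatin. The 4 were SOHLH1 (from 1.09 to 1.87), TKTL1 (from 0.24 to 0.88), CT45A5 (from 0.56 to 1.20) and CT45A1, and the CT45A symbols stand for near-identical genes. CT45A1 was above background with both drugs alone, so only a bound can be given, at least 1.71-fold. With the treated channel above background on both arrays the median of the list was -0.13. All 4 fell short of 1.5-fold with median centring, from 0.23 (CT45A1) to 0.54 (SOHLH1). SSX4B, of the SSX family but not on the list, was lower, from 1.15 to 0.49. Its difference, -0.66, was -0.45 with the values of the authors' table. Of tumour suppressor genes methylated in colon cancer 1 of 25 was higher and 2 lower, near the 5.59 % and 4.51 % of all genes. IGFBP3, a p53-induced binding protein of insulin-like growth factors, went from 0.25 to 2.21, and RUNX3 and CDKN2A were the lower 2. The study counted p16, from CDKN2A, among its silenced loci. The CDKN2A probe was bright in control cells, with control log2 signals of 11.7 (array labelled carboplatin) and 11.8 (both drugs), so it read a transcript present there. PDLIM4 and RASSF1, a cytoskeletal and a Ras-pathway gene, had differences of -0.15 and -0.34.

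Of the DNA methylation and heterochromatin genes 0 of 32 were higher and 1 lower, with a median of -0.15. UHRF1, which brings DNMT1 to replicated DNA, was the lower one, from 0.31 to -0.78. DNMT1 went from 0.33 to -0.15. CBX5 had a difference of -0.55, short of 1.5-fold, with all 3 probes below 0. Its brightest probe was below control on both arrays, -1.22 with both drugs against -0.67 on the array labelled carboplatin, while its other 2 had -0.35 and -0.33 with both drugs against 0.14 and 0.30. CBX1 and CBX3, the other HP1 genes, had differences of -0.57 and -0.03.

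In interferon response genes 1 of 41 was higher and 7 lower, with a median of -0.18. IFITM1 and IFI27 had 0.41 and 0.19 with both drugs against 1.66 and 1.09 on the array labelled carboplatin, although the control signals of IFITM1 also differed, by -0.86. The higher one was TRIM22, also a p53 target. Its treated signal was above background with both drugs alone, so only a bound can be given, at least 2.74-fold. Of NF-kB targets 5 of 27 were higher, BIRC3 most (1.71), and 5 lower, IL1R2 most (-2.61). TAP1, the peptide transporter of antigen presentation, went from -0.21 to 0.85, and PSMB10 from 0.54 to 1.15, as the 2 members of 23 of the MHC class I list past 1.5-fold.

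Lipid genes were lower in part. Of 20 fatty acid synthesis genes 6 were lower and 1 higher, and of 25 cholesterol genes 4 were lower and 1 higher. SCD, stearoyl-CoA desaturase, was below control on every array, -1.46 on the array labelled carboplatin, -2.87 with both drugs and -2.66 on the array labelled decitabine. SREBF1, the transcription factor of fatty acid synthesis, went from -0.10 to -1.23, and FADS2, a fatty acid desaturase, from -0.49 to -1.44. INSIG1, which retains SREBP proteins in the endoplasmic reticulum, had a difference of -1.10. FASN, fatty acid synthase, had 0.02. ME1, the malic enzyme, was the higher fatty acid gene at 0.87, but had 0.18 when the first 9 columns were left out.

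Of 20 Wnt and crypt stem cell genes 2 were higher and 4 lower, with a median of -0.06. The higher ones were MYC, given above, and CD44, an adhesion receptor, at 0.69. APCDD1, TNFRSF19 and NKD1 were lower by -1.24, -0.94 and -0.61 beside LGR6, and AXIN2, a general Wnt target, had -0.58. Of 24 intestinal genes 2 were higher and 4 lower, with a median of -0.02. FCGBP, a mucus protein, and CA2, carbonic anhydrase, were the higher ones, by 1.08 and 0.92, and GATA6 and KLF4 lower by -0.63 and -0.61 beside CLRN3 and VIL1. Hypoxia and glycolysis genes gave 5 of 33 higher and 0 lower, with ADM, adrenomedullin, at 2.01 and SLC2A3, a glucose transporter, at 1.47. HMOX1, haem oxygenase, was the most raised of 29 NRF2 and glutathione genes at 1.38, and AKR1C3 the only lower one at -1.36. MT1F was the only metallothionein of 11 past 1.5-fold, at -1.45.

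Repair genes for platinum adducts and crosslinks gave 2 higher and 2 lower of 38, near the shares of all genes, with a median of -0.05. DDB2 and XPC, which recognise lesions for nucleotide excision repair and are p53 targets, had differences of 1.16 and 0.92. MAD2L2, a subunit of polymerase zeta, had a difference of -0.59. The genes of drug uptake and activation gave 4 higher and 1 lower of 22. RRM2B, the p53-induced subunit of ribonucleotide reductase, had 1.45, ATOX1, a copper chaperone, 0.90, ABCC1, an efflux pump, 0.62 and SLC31A2, a copper transporter, 0.59. CDA, the deaminase that inactivates decitabine, went from 0.04 to -1.02. DCK, which activates decitabine, and SLC31A1, a copper transporter that takes up platinum, had -0.22 and -0.02.

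Probes on the mitochondrial genome stood above the nuclear genes of the same complexes. Of 75 nuclear oxidative phosphorylation genes 2 were at least 1.5-fold higher, ATP5MC1 (0.70) and NDUFV3 (0.64), 0 lower, with a median of 0.02. The 5 mitochondrially encoded genes measured, chosen after their values were seen, all passed 1.5-fold. ND3, CYTB, ND5, ND4 and ND6, subunits of complexes I and III, had differences of 1.06, 0.98, 0.93, 0.88 and 0.69. In the treated channel alone these were 0.60, 0.64, 0.94, 0.83 and 0.22, and in the control channel -0.46, -0.34, 0.02, -0.06 and -0.47. Only ND5 and ND4 thus had like control signals on both arrays. With the values of the authors' table CYTB (0.53), ND3 (0.48) and ND6 (0.15) fell short of 1.5-fold. A probe named for TMEFF2 that the design also places on the mitochondrial genome had 0.47, and -0.07 in the treated channel. HNRNPM appeared higher (0.83), by a probe that the array design places on the mitochondrial genome, while another of its 3 probes gave -0.24.

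Lists for basic processes moved little. Of 77 cytoplasmic ribosomal protein genes 0 were higher and 0 lower, with a range from -0.34 to 0.38. Of 24 heat shock and chaperone genes 0 were higher and 0 lower, with a range from -0.15 to 0.48.

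Cell identity was checked by markers. Of 12 markers of colon epithelium, 8 were above background in all 4 channels, among them CDX2, EPCAM and KRT19, and CDX1 and KRT20 in none. PTPRC and HBB of blood, PECAM1, CDH5 and KDR of endothelium and COL1A2 and COL3A1 of fibroblasts were above background in none. CD68, a lysosomal protein of macrophages and other cells, and ACTA2, smooth muscle actin, were above background throughout, with differences of 1.13 and 1.21. A share of cells changed and a change in every cell cannot be told apart in these bulk RNA samples.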

How the data were processed

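Gene expression was measured on Agilent human arrays with 2 dyes, a single array for each treatment, on 1 slide by the file labels. Spot intensity was deposited by the authors as scanner output of Agilent Feature Extraction (9.5.3.1 per the file headers). The log10 ratio of red over green in the deposited scanner files was not used. The authors' processed table gives log2 ratios per probe, loess normalized, with medians of -0.01, 0 and -0.01 on the arrays labelled decitabine, labelled carboplatin and of both drugs. Its background step and direction are not stated, and correlations of 0.867, 0.838 and 0.936 with the scanner values set the direction. It served as an alternative.

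Mean signals were corrected by normexp (offset 50) against the local median background and normalized by loess within each array, in R 4.3.3 with limma 3.58.1. Outlier spots were left out (111 and 89). The log2 change is treated over control, and the difference is both drugs minus labelled carboplatin. All arrays share the dye orientation, so a constant dye bias of a probe cancels in the difference. Channel signals came from Aquantile scaling. Of 41000 probes, 28580 passed the rule and 29381 matched a RefSeq gene, 26386 by accession and 2995 by symbol. A gene is represented by its brightest probe that passed. Genes at least 1.5-fold apart were called. The number of arrays limits the precision, so no test was run. The steps were tested on simulated data.

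Named were the 12 largest rises and falls among genes above background on both arrays with probes of like sign, the 6 largest bounds each way, up to 4 genes per list past 1.5-fold with main members, and CBX5, PDLIM4, CDKN2A and RASSF1. A few genes that this rule names are not reported here. A bound sets the bright array against the higher of the dim probe's signal and the lowest signal above background. The lists, rules and members were chosen with earlier results of these data known. Alternatives were no background subtraction, median or processed signals, the authors' deposited values, median centring, treated channels alone, other filters, outlier spots kept, the median over probes, no edge columns and a 2-fold threshold.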

Additional observations from a re-analysis of the deposited data

How the results depend on the processing

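The 786 genes higher and 634 lower kept within 1.5 times of those counts under 10 of the 11 alternative processings, from 707 to 880 higher and 532 to 706 lower. With the processed signals of the scanner software 1499 were higher, 918 lower, 62 % of the calls were higher against 55.4 %, and the median of all genes shifted to 0.0737. At 2-fold 245 were higher and 132 lower. The count of dim genes that were higher, 42, came to 154 with the processed signals, 23 with median centring, 14 with the treated channel above background on both arrays and 20 at 2-fold. Of 297 genes past 1.5-fold that were named or lie in a list, 206 stayed past it in the same direction wherever they were measured, and RUNX3 was reversed, to 0.48 with the processed signals. Besides those given with their values, ABCC1, ATP5MC1, CALCA, CDK2, COL1A1, DNALI1, DUSP5, E2F1, E2F2, EN1, FADS2, GATA6, ITGB5, KLF4, MAD2L2, NKD1, SBSPON, SLC31A2 and TNFRSF10D fell short of 1.5-fold under 1 to 3 alternatives. The median of the p53 arrest list ranged from 1.14 to 1.34 and that of the mitosis list from -0.97 to -0.86. Medians near 0 changed sign under at least 1 alternative for the ribosomal protein, oxidative phosphorylation, cancer-testis, Wnt, intestinal, tumour suppressor and drug uptake lists. The cause was not tested. No paired analysis was possible because there is 1 array per treatment, and depth is limited to signal over background.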
